A study of Homo sapiens with 12 samples.

Results

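Binding of 2 transcription factors was mapped by chromatin immunoprecipitation and sequencing in the same prednisolone-treated cells, and the regions called for STAT5B were set against those called for the glucocorticoid receptor NR3C1. The STAT5B list held 766 regions on chromosomes 1 to 22 and X, and the NR3C1 list held 994, together 1760 of the 11904 regions in the 8 immunoprecipitation lists of the series. A STAT5B and an NR3C1 region that shared at least 1 bp made a co-bound pair, which gave 142 pairs from 141 STAT5B regions and 140 NR3C1 regions. The other 625 STAT5B regions and 854 NR3C1 regions are called single-factor regions. A further 7 STAT5B and 12 NR3C1 regions lay on other sequences and were left out.

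The cells were SUPT-1, a human T-cell acute lymphoblastic leukaemia line, carrying a doxycycline-inducible construct for wild-type (WT) STAT5B and purified with puromycin. Both libraries of the main comparison came from doxycycline-induced WT cells cultured with prednisolone, a synthetic glucocorticoid, at 250 µg per ml for 16 hours. The untreated WT cells were induced but received no prednisolone, and a parallel line carried STAT5B N642H, an activating mutation found in T-cell leukaemia, with and without the drug. STAT5B was therefore overexpressed in every group, and cells without the construct were not analysed here. Each group held 1 library, so no value has a replicate, nothing could be tested between conditions, and intervals cover counting error over regions only. Expression was not measured, so the identity of the line could not be checked against its marker genes.

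STAT5B is activated by Janus kinases downstream of cytokine receptors such as the interleukin-7 receptor, moves to the nucleus as a dimer and binds the palindrome TTCNNNGAA. NR3C1 rests in the cytoplasm in a chaperone complex until a glucocorticoid binds it, and then binds DNA at imperfect inverted repeats of which ACANNNTGT is the core. Glucocorticoids kill many lymphoblasts through NR3C1, while cytokine signalling through STAT5 favours survival genes such as BCL2L1, which makes regions where both are found of interest in this leukaemia.

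The co-bound regions that lie in an annotated promoter window of 300 bases, 250 before and 50 after the gene's start, ranked higher in the STAT5B list than in the NR3C1 list in most cases. Sequences of 3 of them are shown first, from RefSeq windows of GRCh38.p14 on the strand of the gene, with capitals running from one factor's summit to the other's. RPS7 encodes a protein of the small ribosomal subunit (chr2:3575010-3575309, plus strand), RCOR3 a corepressor of the CoREST family (chr1:211259116-211259415, plus strand), and DMAP1 a subunit of chromatin-remodelling complexes (chr1:44213221-44213520, plus strand).
RPS7: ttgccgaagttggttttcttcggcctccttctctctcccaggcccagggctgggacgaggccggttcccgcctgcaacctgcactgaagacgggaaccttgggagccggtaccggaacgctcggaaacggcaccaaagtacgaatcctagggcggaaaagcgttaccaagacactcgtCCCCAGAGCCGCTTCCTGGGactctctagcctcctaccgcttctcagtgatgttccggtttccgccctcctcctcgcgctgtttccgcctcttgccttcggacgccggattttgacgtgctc
RCOR3: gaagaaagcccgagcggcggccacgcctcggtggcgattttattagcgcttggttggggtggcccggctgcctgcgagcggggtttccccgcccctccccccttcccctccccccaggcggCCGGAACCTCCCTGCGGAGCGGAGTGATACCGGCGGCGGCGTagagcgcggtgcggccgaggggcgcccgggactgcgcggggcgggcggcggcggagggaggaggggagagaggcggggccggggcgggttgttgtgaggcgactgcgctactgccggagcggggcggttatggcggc
DMAP1: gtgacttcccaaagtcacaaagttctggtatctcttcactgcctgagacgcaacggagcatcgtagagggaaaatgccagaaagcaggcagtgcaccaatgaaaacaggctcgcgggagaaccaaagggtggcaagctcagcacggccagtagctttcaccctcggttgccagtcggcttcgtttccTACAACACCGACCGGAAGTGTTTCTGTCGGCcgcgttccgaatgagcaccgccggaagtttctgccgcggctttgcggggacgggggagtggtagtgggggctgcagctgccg
Relative to the gene start, with minus for bases before it, the STAT5B summit lay at -53 bp and the NR3C1 summit at -72 bp at RPS7. The positions were -129 bp for STAT5B and -88 bp for NR3C1 at RCOR3, and -33 bp for STAT5B and -63 bp for NR3C1 at DMAP1. The folds over local background, defined with the strengths further on, were 9.84 for STAT5B and 7.72 for NR3C1 at RPS7, 11.1 for STAT5B and 5.42 for NR3C1 at RCOR3, and 11.1 for STAT5B and 6.89 for NR3C1 at DMAP1. None of the 3 windows held TTCNNNGAA or ACANNNTGT.

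For contrast, the next sequences are promoters at which STAT5B alone was called and in which TTCNNNGAA occurs, with each match in capitals. GTF3C3 encodes a subunit of the RNA polymerase III factor TFIIIC (chr2:196799634-196799933, minus strand), with its STAT5B summit at -88 bp and its match at -47 bp from the start. PSMD3 encodes a proteasome subunit (chr17:39980557-39980856, plus strand), with the summit at -15 bp and matches at -94 and -5 bp.
GTF3C3: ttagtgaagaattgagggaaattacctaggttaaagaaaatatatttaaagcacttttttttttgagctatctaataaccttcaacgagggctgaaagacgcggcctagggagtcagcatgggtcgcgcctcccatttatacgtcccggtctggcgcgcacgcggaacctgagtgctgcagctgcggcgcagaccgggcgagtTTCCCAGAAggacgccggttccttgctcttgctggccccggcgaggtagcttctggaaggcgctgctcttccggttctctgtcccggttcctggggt
PSMD3: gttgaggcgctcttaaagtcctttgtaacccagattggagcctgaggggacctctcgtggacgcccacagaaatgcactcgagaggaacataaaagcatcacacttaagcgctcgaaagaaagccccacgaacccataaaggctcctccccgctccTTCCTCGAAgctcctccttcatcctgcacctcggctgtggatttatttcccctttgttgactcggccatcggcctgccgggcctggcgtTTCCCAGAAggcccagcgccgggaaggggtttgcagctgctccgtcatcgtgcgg
These promoters were not typical of their class. TTCNNNGAA, searched on both strands, was in 27 of the 375 windows that held a STAT5B-only summit (7.20%, exact 95% interval 4.80 to 10.3), in 0 of the 14 with a co-bound STAT5B summit (which allows up to 23.2%), and in 6.79% of all 22132 promoter windows. ACANNNTGT was in 0 of the 14 co-bound windows, in 5 of the 375 STAT5B-only windows (1.33%), in 0 of the 16 with an NR3C1-only summit, and in 3.96% of all windows. Summits in promoters thus carried the STAT5 letters at about the share of any promoter. Neighbouring windows can share a summit, and co-bound regions outside these windows, including those at FKBP5, in KLF13 and near BTG1, have no sequence shown here.

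Co-bound regions were a minority of both lists. They were 18.4% of the STAT5B regions (exact 95% interval 15.7 to 21.3) and 14.1% of the NR3C1 regions (12.0 to 16.4), which are also the shares called for the lists as a whole. Without prednisolone only 2 NR3C1 regions were called in this line, and neither lay at any of these pairs. Single-factor regions were in general far from the other factor: the median gap was 639343 bp from a STAT5B-only region to the nearest NR3C1 region and 1190450 bp from an NR3C1-only region to the nearest STAT5B region. Of the 625 STAT5B-only regions, 12 had an NR3C1 region within 500 bp and 47 within 50 kb. The nearest misses were in AMZ1, with 4 bp between the regions, and in ARID1A, with 22 bp, and the smallest overlap counted as co-bound was 7 bp.

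Where the 2 factors overlapped, their summits were close. The distance between summits had a median of 42 bp (quartiles 21.5 and 70.8 bp), was at most 50 bp in 80 of 142 pairs (56.3%) and at most 100 bp in 121 (85.2%). Both summits lay inside both regions in 101 pairs (71.1%). The signed distance had a median of -4.5 bp, so neither factor lay on a preferred side of the other along the chromosome, whose strand is arbitrary here. A pair 23593 bp from HNRNPLL, which encodes an RNA-binding protein that controls splicing in lymphocytes, had both summits on the same base. The pair at the start of WDR24, which encodes a subunit of a regulator of mTORC1, had them 2 bp apart. The widest spacings were 448 bp in SH3TC1, 429 bp near RPS6KA1, 268 bp at RTTN, 255 bp near ANAPC1 and 207 bp at CALM2, and the SH3TC1 case was a second STAT5B region under 1 wide NR3C1 region. Since an overlap was needed for a pair, region widths bound these distances: median widths were 155 bp for co-bound STAT5B regions and 216.5 bp for co-bound NR3C1 regions.

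Across the pairs the strengths of the factors had almost no rank correlation. Fold enrichment, the authors' own value for each region over its local background, had a Spearman rho of 0.02 between the factors over 142 pairs, and −log10 q one of 0.06. These are descriptions, over points that share the regions' chromatin and the treatment. Strength is compared below by rank within a factor's own list, because the lists differ in scale: fold ranged over 2.20 to 17.2 for STAT5B (median 7.20) and 3.01 to 76.9 for NR3C1 (median 8.68). A region above the 75th percentile of −log10 q in its own list is called strong below. Both factors were strong in 23 of 142 pairs, and both were below the median of their lists in another 23.

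**Figure D1:**
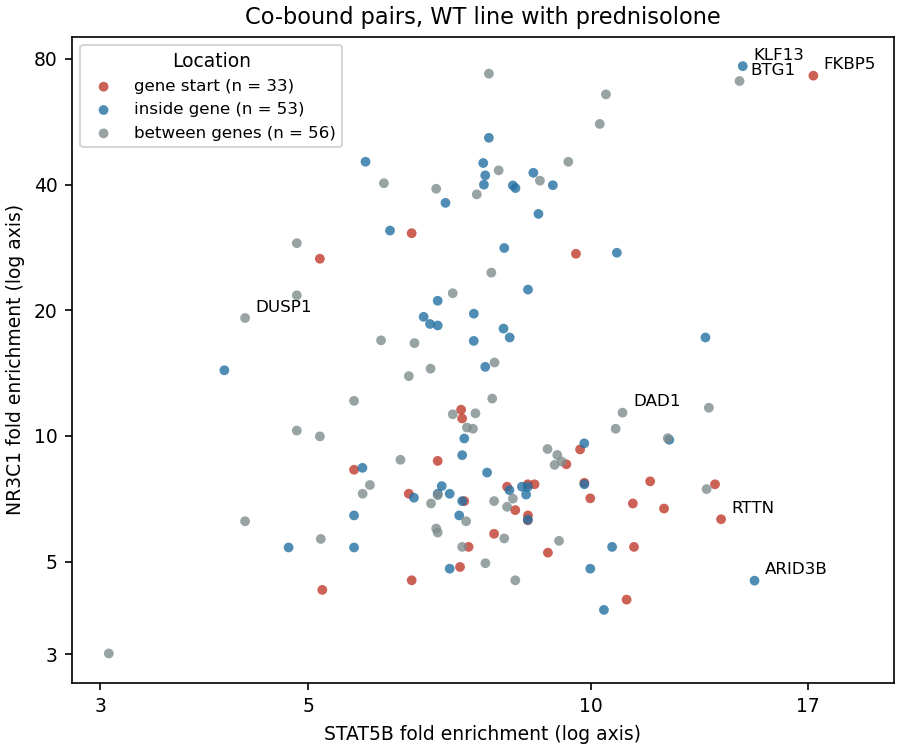
Fold enrichment of STAT5B (horizontal, log axis) and of NR3C1 (vertical, log axis) at the 142 co-bound pairs of the WT line with prednisolone, 1 point a pair, coloured by the location of the STAT5B summit. Points at gene starts lie mostly low on the vertical axis, where STAT5B fold reached 13.8 at RTTN with an NR3C1 fold of 6.31, and FKBP5, KLF13 and BTG1 stand apart at the upper right, with NR3C1 folds of 73.0, 76.9 and 70.8.

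Co-bound STAT5B regions were stronger than STAT5B-only ones. Their median fold was 7.78 against 6.99 in STAT5B-only regions, their median −log10 q 7.75 against 5.71, and 98 of 141 (69.5%, 61.2 to 77.0) lay above the STAT5B-only median fold. Over 4 equal bins of STAT5B −log10 q, from the weakest up, the co-bound share was 12.5%, 11.5%, 17.3% and 32.3%, so it was highest among the strongest STAT5B regions. For NR3C1 the medians were alike, at a fold of 8.995 in co-bound regions and 8.65 in NR3C1-only regions, with 74 of 140 co-bound regions (52.9%, 44.2 to 61.3) above the NR3C1-only median. Its upper quartile was 20.0 in co-bound regions against 12.3 in NR3C1-only regions. Over 4 equal bins of NR3C1 −log10 q, from the weakest up, the co-bound share was 16.5%, 9.68%, 9.68% and 20.5%. It was thus higher in the end bins than in the middle ones. The interval of the weakest bin (12.1 to 21.7) overlapped that of each middle bin (6.30 to 14.1), and that of the strongest bin was 15.6 to 26.0. The 10 strongest NR3C1 regions were all co-bound, as were 7 of the 10 strongest STAT5B regions.

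Fold values rest on few sequenced fragments. Solving the deposited fold and −log10 p for the pileup gave a median of 18 fragments at the summit of co-bound STAT5B regions (135 of 141 regions solved) and 15 at STAT5B-only ones (593 of 625). It gave 20.5 at co-bound NR3C1 regions (136 of 140) and 19 at NR3C1-only ones (802 of 854). The solved background reached 10 times that of the genome at 1 pair, near DUX4, and at 5 of the 593 solved STAT5B-only regions. The lowest solved pileup was 10 at co-bound STAT5B regions and 9 at STAT5B-only ones.

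The pairs with the smallest sum of ranks in both lists were led by a pair at FKBP5 and a pair in KLF13. Both genes belong to the glucocorticoid-response list used below. At the start of FKBP5, which encodes a co-chaperone that lowers hormone binding of NR3C1, the STAT5B region (chr6:35727851-35728271) had a fold of 17.2, the highest in its list, and the NR3C1 region a fold of 73.0, with the second-highest −log10 q of its list, with summits 81 bp apart. The pileups there were 38 fragments for STAT5B and 162 for NR3C1. FKBP5 had a second pair inside the gene (chr6:35602044-35602216), with a STAT5B fold of 8.68, an NR3C1 fold of 42.7 and summits 4 bp apart. Another pair upstream, at the start of ARMC12 (chr6:35731763-35732103), had folds of 9.63 for STAT5B and 27.3 for NR3C1. All 3 STAT5B regions within 50 kb of FKBP5 were co-bound, as were 3 of its 5 NR3C1 regions.

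KLF13, which encodes a Krüppel-like zinc-finger factor, held the strongest NR3C1 region of the list. That pair (chr15:31365691-31366072) had a STAT5B fold of 14.5, an NR3C1 fold of 76.9 and summits 6 bp apart. A second pair in KLF13 had folds of 7.29 for STAT5B and 8.99 for NR3C1. The next pair by rank lay between genes, 109440 bp from BTG1 (chr12:92030711-92030978), an antiproliferative gene, with a STAT5B fold of 14.4, an NR3C1 fold of 70.8 and summits 16 bp apart. At these 3 loci NR3C1 held the 3 highest ranks of its list by −log10 q and STAT5B was among its own 10 highest.

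Further down the same ranking STAT5B folds were lower while NR3C1 stayed strong. A pair 166736 bp from NR3C1 itself (chr5:143602025-143602320) had folds of 10.2 for STAT5B and 55.9 for NR3C1. A pair 18286 bp from CXCR4 (chr2:136136337-136136470), the chemokine receptor that holds lymphocytes in bone marrow, had 9.46 for STAT5B and 45.4 for NR3C1. In KIF3C (chr2:25937079-25937398), a kinesin gene, the folds were 7.68 for STAT5B and 45.1 for NR3C1, in RUNX2 9.10 for STAT5B and 39.9 for NR3C1, and in CCND3, which encodes cyclin D3, 8.25 for STAT5B and 39.8 for NR3C1. IKZF1, which encodes the lymphoid factor IKAROS, had a pair inside the gene (chr7:50342884-50342993) with folds of 8.79 for STAT5B and 34.0 for NR3C1. Pairs inside GMDS, SPEF2, SH3TC1 and CAMK2D and near ANAPC16, HTR5A and SRP14 were also among the 20, with STAT5B folds of 6.84 to 13.2 and NR3C1 folds of 17.2 to 43.3. The remaining 2 of the 20 lay nearest to uncharacterised genes on chromosomes 2 and 17, with NR3C1 folds of 40.9 and 65.8.

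The pairs in which the ranks differed most were of opposite kinds. NR3C1 was strong and STAT5B near its threshold near DUSP2 (STAT5B fold 4.86, NR3C1 fold 29.0), near DUSP1 (4.28 for STAT5B, 19.2 for NR3C1), in CDK15 (5.75 for STAT5B, 45.4 for NR3C1), at WDR24 (5.14 for STAT5B, 26.6 for NR3C1) and at a site 284183 bp from PTPRC (4.86 for STAT5B, 21.7 for NR3C1). DUSP1 and DUSP2 encode phosphatases that switch off MAP kinases. STAT5B was strong and NR3C1 near its threshold in MTSS1 (10.3 for STAT5B, 3.83 for NR3C1), ARID3B (14.9 for STAT5B, 4.50 for NR3C1) and GPR84 (10.5 for STAT5B, 5.42 for NR3C1) and at the starts of RCOR3 (11.1 for STAT5B, 5.42 for NR3C1) and KDM3A (10.9 for STAT5B, 4.05 for NR3C1).

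The classes differed widely in location. A summit was placed at a gene start when it lay within 1 kb of an annotated start of a protein-coding gene, or of either end of the 4009 of 19821 genes without an annotated start. By that measure 33 of 141 co-bound STAT5B regions were at a gene start (23.4%, 16.7 to 31.3), against 450 of 625 STAT5B-only regions (72.0%, 68.3 to 75.5) and 57 of 854 NR3C1-only regions (6.67%, 5.09 to 8.56). Seen from the other side, 6.83% of STAT5B regions at gene starts were co-bound, 46.5% of those inside genes and 32.5% of those between genes. For NR3C1 the order was the opposite, with 36.7% of regions at gene starts co-bound, 11.7% of those inside genes and 12.0% of those between genes. STAT5B-only summits within 1 kb of an annotated start had a median position of -55 bp (n = 390), and co-bound STAT5B summits one of -98.5 bp (n = 22), with a 95% interval of -249 to -36 bp that holds the STAT5B-only value.

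**Figure D2:**
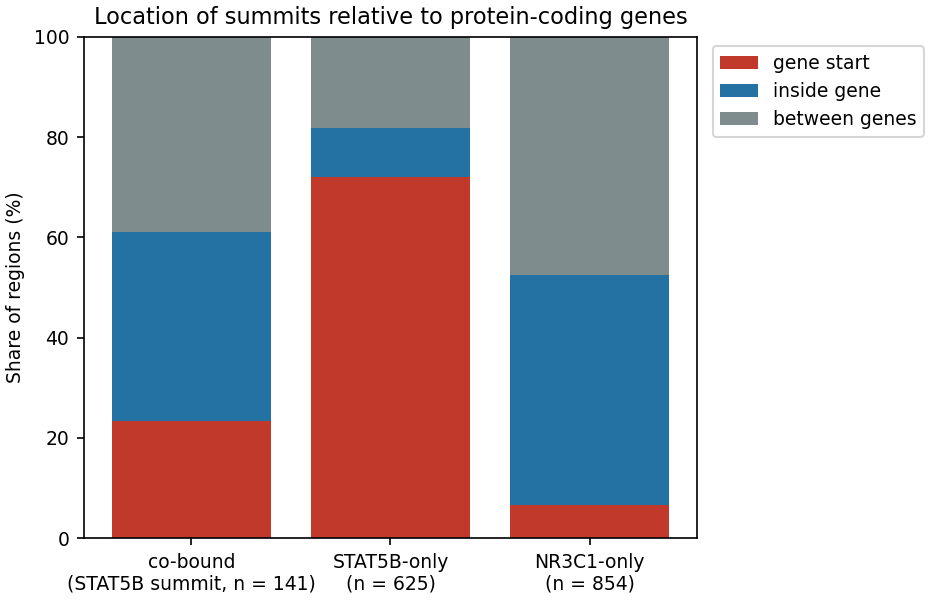
Share of regions (vertical axis, %) whose summit lay at a gene start, inside a gene or between genes, for the 141 co-bound STAT5B regions, the 625 STAT5B-only regions and the 854 NR3C1-only regions. Gene starts made up 23.4% of co-bound, 72.0% of STAT5B-only and 6.67% of NR3C1-only regions.

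Pairs at gene starts and pairs elsewhere also differed in which factor was strong. Among the 33 pairs at gene starts, STAT5B was strong in 18 (54.5%) and NR3C1 in 4 (12.1%), with median folds of 8.56 for STAT5B and 7.27 for NR3C1. NR3C1 was strong in 27 of 53 pairs inside genes (50.9%) and in 21 of 56 pairs between genes (37.5%). Besides FKBP5, the gene-start pairs with the highest STAT5B folds were at RTTN (13.8), SMG8 (13.6), KMT2A (12.0), ERAP1 (11.6) and RCOR3 (11.1), with NR3C1 folds of 5.42 to 7.78. KMT2A encodes a histone H3 lysine methyltransferase and SMG8 a regulator of nonsense-mediated decay. Summit spacing at gene starts had a median of 42 bp, the same as inside genes, and 47.5 bp between genes.

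The pairs were then split by NR3C1 strength, a division chosen after the values had been seen. The 52 pairs with strong NR3C1 had summits a median of 32.5 bp apart, 37 of them within 50 bp (71.2%, 56.9 to 82.9). In the other 90 pairs the median was 52.5 bp, with 43 within 50 bp (47.8%, 37.1 to 58.6). Across all 142 pairs the spacing had a Spearman rho of -0.24 with NR3C1 −log10 q and of 0.02 with STAT5B −log10 q. NR3C1 regions were also wider in the 52, with a median of 444.5 bp against 141 bp in the 90, and what part width has in the spacing was not tested. A gene start held 4 of the 52 (7.69%) and 29 of the 90 (32.2%). STAT5B itself had similar values in both sets, with a median fold of 7.71 and 18 fragments in the 52 and a median fold of 7.86 and 17.5 fragments in the other pairs, of which 82 were solved.

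**Figure D3:**
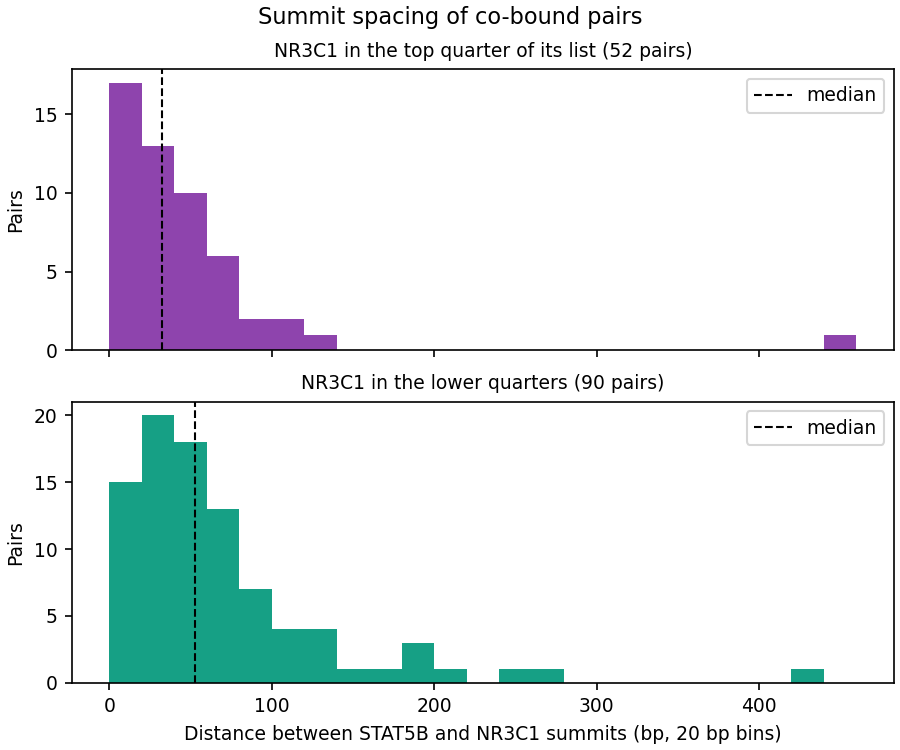
Number of co-bound pairs (vertical axis) by distance between the STAT5B and NR3C1 summits in bp (horizontal axis, bins of 20 bp), for the 52 pairs with strong NR3C1 (upper panel) and the other 90 (lower panel). Dashed lines mark the medians, 32.5 bp above and 52.5 bp below.

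These sets differed in whether STAT5B had been called at the same place without prednisolone. The untreated WT STAT5B list was longer, with 2267 regions. It overlapped the STAT5B region of 20 of the 52 pairs with strong NR3C1 (38.5%, 25.3 to 53.0), of 69 of the other 90 pairs (76.7%, 66.6 to 84.9), and of 366 of the 625 STAT5B-only regions (58.6%, 54.6 to 62.5). Over the 4 bins of NR3C1 strength, from the weakest up, the share was 70.7%, 76%, 87.5% and 38.5%. Away from gene starts it was 17 of 48 pairs with strong NR3C1 (35.4%, 22.2 to 50.5) and 41 of 61 others (67.2%, 54.0 to 78.7), and among pairs with strong STAT5B 10 of 23 with strong NR3C1 (43.5%, 23.2 to 65.5) and 37 of 40 others (92.5%, 79.6 to 98.4). Without the split, 88 of 141 co-bound STAT5B regions (62.4%, 53.9 to 70.4) were in the untreated list.

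The longest STAT5B list of the series, that of untreated N642H cells with 4541 regions, gave the same order. It overlapped the STAT5B region of 23 of the 52 pairs with strong NR3C1 (44.2%, 30.5 to 58.7), of 81 of the other 90 (90.0%, 81.9 to 95.3) and of 480 of the 625 STAT5B-only regions (76.8%, 73.3 to 80.1). STAT5B was in neither untreated list at 26 of the 52 pairs (50%, 35.8 to 64.2), at 8 of the 90 (8.89%, 3.92 to 16.8) and at 105 of the 625 STAT5B-only regions (16.8%, 14.0 to 20.0). The 33 pairs at gene starts were at the other extreme, with 31 in the untreated WT list and 32 in the untreated N642H list.

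**Figure D4:**
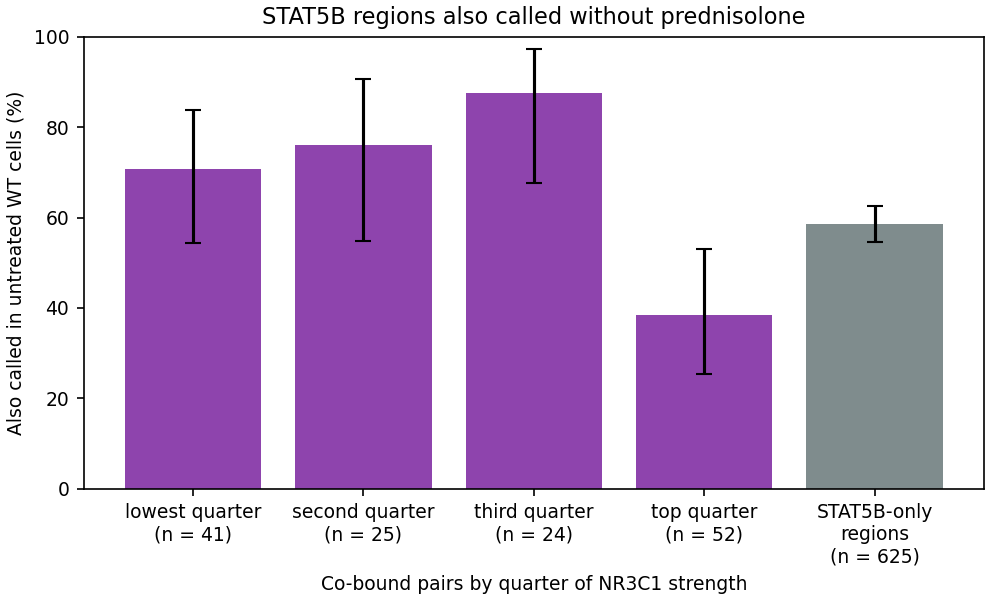
Share of STAT5B regions also called in untreated WT cells (vertical axis, %), for co-bound pairs in 4 bins of NR3C1 strength from the weakest to the strongest and for the 625 STAT5B-only regions, with the share as bars and exact 95% intervals as whiskers. The share was 38.5% in the strongest bin and between 70.7% and 87.5% in the others.

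Named loci show this pattern. The pairs near BTG1, CXCR4 and NR3C1, in KIF3C and IKZF1, and inside FKBP5 had a STAT5B region in prednisolone-treated WT cells but in neither untreated list. The STAT5B region near BTG1 had a fold of 14.4 in WT cells and of 8.52 in N642H cells, both with prednisolone. The one near CXCR4 had 9.46 in WT cells and 9.17 in N642H cells with prednisolone, and the one near NR3C1 10.2 in WT cells and 10.6 in N642H cells. The start of FKBP5 was called in all 4 STAT5B lists, with folds of 17.2 in WT cells and 11.2 in N642H cells with prednisolone, against 9.07 in WT cells and 5.86 in N642H cells without it. The main KLF13 region had a fold of 14.5 with prednisolone and 4.14 without it in WT cells. Each fold is relative to its own library's background, so these values stand side by side and are not changes. Of the 20 pairs with the smallest rank sums, the N642H list with prednisolone held the STAT5B region of 14. The untreated WT list held that of 6 and the untreated N642H list that of 5. These 20 were chosen partly by STAT5B rank and do not stand for all pairs. The N642H list with prednisolone held the STAT5B region of 18 of the 52 pairs with strong NR3C1 (34.6%). It held that of 31 of the other 90 (34.4%), so the shares were alike. The STAT5B region inside FKBP5 was absent from that list too.

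The N642H line gave a partly different picture of the same split. With prednisolone it had 444 STAT5B and 2888 NR3C1 regions, and 239 pairs with a median spacing of 46 bp. Pairs with strong NR3C1, by the 75th percentile of that longer list, were at a gene start in 11 of 76 (14.5%, 7.45 to 24.4), against 65 of the other 163 (39.9%, 32.3 to 47.8). Their median spacing was 48 bp against 44 bp in the others, and the untreated N642H list held the STAT5B region of 52 of 76 (68.4%, 56.7 to 78.6) against 106 of 163 (65.0%, 57.2 to 72.3). The intervals of the untreated shares overlapped there, unlike in WT cells, and the difference between the lines was not tested. NR3C1 itself was called in the N642H line with prednisolone at all 52 WT pairs with strong NR3C1 and at 73 of the other 90 (81.1%).

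The strongest single-factor regions of STAT5B and of NR3C1 differed from each other in location. Of the 10 strongest STAT5B-only regions, 6 were at gene starts, at TOR1AIP1, IPO4, CDKL3, COPS7B, ZBTB45 and RBL1, with folds of 11.5 to 12.9. RBL1 encodes p107, a pocket protein that restrains cell-cycle genes. The other 4 lay between genes, nearest to GRAPL (fold 14.9), OR4F5 (11.4), an uncharacterised gene on chromosome 1 (13.7) and CCDC200 (7.24). GRAPL was also nearest to a co-bound pair (13.3 for STAT5B, 11.7 for NR3C1). The 10 strongest NR3C1-only regions were all inside or between genes, as were most pairs with strong NR3C1. They were led by one 9864 bp from ZFP36L2 (fold 50.1), which encodes a destabiliser of AU-rich mRNAs. The others were near GRAMD2B, RCSD1 and KATNAL1 and inside USP53, HHAT, PFKFB2, IRS1, TANC1 and GPR173, with folds of 36.5 to 48.1. IRS1 encodes an insulin receptor adaptor and PFKFB2 a regulator of glycolysis. Of the 249 strong NR3C1 regions, 198 overlapped no STAT5B region.

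Genes were linked to a region when its summit lay in the gene span or within 20 kb. Of 19821 protein-coding genes, 0.772% were linked to a co-bound region (153 genes), 5.45% to a STAT5B-only and 3.57% to an NR3C1-only region. Any STAT5B region was linked to 6.12% of genes, any NR3C1 region to 4.2% and both factors to 0.964%, and 0.192% of genes had both factors without a co-bound region. Among 30 glucocorticoid-response genes, 7 were linked to a co-bound region, namely FKBP5, DUSP1, ZBTB16, CXCR4, BTG2, KLF13 and SMAP2, and 18 to any NR3C1 region. The co-bound count depends on the distance allowed: it was 4 with links to the gene span alone and 11 with links of 50 kb, where TSC22D3, DDIT4, TOB1 and BMF joined. Within 20 kb, TSC22D3, which encodes the mediator GILZ, KLF9, TXNIP, NFKBIA, DDIT4, IRS2, PIK3IP1, IL7R, ZFP36L2 and BCL2L11 were linked to NR3C1 alone. Of the 9 members with a STAT5B region within 20 kb, BMF and ZFP36 had it apart from NR3C1. ZBTB16, which encodes the factor PLZF, had a pair inside the gene (8.08 for STAT5B, 28.2 for NR3C1), SMAP2 one inside the gene (6.997 for STAT5B, 36.2 for NR3C1) and BTG2 one 11606 bp away (10.6 for STAT5B, 10.4 for NR3C1). The strongest NR3C1 region near TSC22D3 was co-bound but 38996 bp from the gene (7.78 for STAT5B, 73.8 for NR3C1). The pair nearest to ANAPC16 (7.97 for STAT5B, 43.3 for NR3C1) lay 24971 bp from DDIT4. BMF had 2 co-bound regions within 50 kb, of which the pair nearest to SRP14 (6.84 for STAT5B, 39.1 for NR3C1) lay 39210 bp away. This list was compiled with such genes in mind, and its count is a description.

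Of 30 STAT5 target genes, 4 were linked to STAT5B (BCL2L1, MYC, CCND3 and ARID3B), 6 to NR3C1 and 3 to a co-bound region. Over all genes the shares were 6.12% for STAT5B, 4.2% for NR3C1 and 0.772% for co-bound regions. The STAT5 list was also compiled with earlier results of these data known, and its counts are descriptions. It includes ARID3B, whose STAT5B region overlapped one of fold 33.3 in untreated N642H cells, the highest fold of that STAT5B list. The pair in BCL2L1 (chr20:31708450-31708544), which encodes the survival protein BCL-XL, had folds of 7.07 for STAT5B and 7.27 for NR3C1, both weak in their lists, with summits 25 bp apart and 13 fragments for each factor. Its STAT5B region was absent from the untreated WT list and present in untreated N642H cells with a fold of 13.2. MYC had a STAT5B-only region at its start (fold 5.43). SOCS1, BCL6 and CD69 had NR3C1 regions without STAT5B, with folds of 25.3 at the nearest SOCS1 region and 10.3 in BCL6. CISH, SOCS2, PIM1 and BCL2, established STAT5 targets, had no region of either factor within 50 kb in these lists. Among 20 BCL2-family genes, BCL2L11, which encodes the death protein BIM, had an NR3C1-only region inside the gene (fold 10.5) and BMF a STAT5B-only region at one end (fold 6.02) besides its more distant pairs.

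Other lists had 0 to 2 members at co-bound regions within 20 kb, beside shares over all genes of 0.772% for co-bound, 6.12% for STAT5B and 4.2% for NR3C1 regions. STAT3 was the only one of 27 cytokine-receptor and JAK-STAT genes, with weak NR3C1 at its start (7.41 for STAT5B, 5.42 for NR3C1), while STAT4 was linked to STAT5B alone and IL7R, IFNAR1, JAK1, STAT5A, STAT5B and SOCS1 to NR3C1 alone. Among 25 T-lineage transcription factors IKZF1 was co-bound, and IKZF3 and TOX had separate regions of each factor. Among 25 T-cell surface and signalling genes CD3E and CXCR4 were co-bound, at CD3E with folds of 6.44 for STAT5B and 4.51 for NR3C1, and 7 others, CD2, CD7, CD1E, CD28, PTPRC, LCP2 and CCR9, had NR3C1 alone. BTG2 was the one co-bound gene among 12 BTG, TOB, ZFP36 and CNOT genes, KLF13 among 17 Krüppel-like factors and FKBP5 among 18 receptor chaperone and cofactor genes. Of 26 ribosomal protein genes, 7 were linked to STAT5B, among them RPS2, RPL5 and RPL15, and 1, RPS7, was also linked to NR3C1. Of 16 genes of other blood cells 1, ELANE, was linked to NR3C1, a share near that over all genes, and of 16 genes of non-blood tissues none to either factor.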

How the data were processed

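Peaks were deposited per library. The submitters' processing notes name the tools BWA, MACS2 and deepTools and the build hg38, whose versions are not given in the sources used here. Per the labels' protocols, chromatin of fixed cells was prepared with an enzymatic kit and water-bath sonication. For each peak the authors deposited a score (the whole part of 10 times −log10 q), the fold over local background (a ratio), −log10 p and −log10 q, and the summit. They are the authors' own values, kept to ranking and describing regions inside 1 list, and no p-value was computed. The input libraries were not analysed here, and read totals are not known from the lists.

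Coordinates are on hg38, counted from 1. Overlap of at least 1 bp defined a pair. Genes came from a RefSeq table of GRCh38.p14 without strand or exons, with rows on other sequences dropped, and 15812 of the 19821 protein-coding genes matched a RefSeq promoter window. Exons and introns are not analysed here. Shares have exact Clopper-Pearson 95% intervals, for counting error only. Summit pileup and local background were solved from fold, with a pseudocount of 1, and the Poisson −log10 p. On simulated data planted overlaps were found in 20 of 20 runs and pileups in 100.0% of regions. Named genes were the nearest gene of the 20 pairs with the smallest rank sum, of the 10 strongest single-factor regions of each factor, of the 5 most unequal pairs each way and of the 5 widest spacings, list members and a fixed set. Others are named as examples chosen after their values were seen, among them RPS7, RCOR3, DMAP1, GTF3C3, PSMD3, HNRNPLL, AMZ1, DUX4, SMG8, KMT2A and ERAP1. Members and lists were chosen with earlier results of these data known. Python 3.11.15, pandas 2.3.3 and scipy 1.17.1 were used.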

Additional observations from a re-analysis of the deposited data

How the results depend on the processing

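No paired analysis was possible because each group held 1 library, and no replicate could be left out. No direction was reversed by any alternative, but strength results changed in whether their interval held 50%, as given below. In all, 92 of 110 values stayed within their interval or, for gene counts, within 1.5 times. With summits within 100 bp as the definition of a pair, 66.1% of pairs were within 50 bp. Raising the minimum −log10 q to 5 gave an NR3C1 co-bound share of 10.5%. Of co-bound STAT5B regions, 60.9% were then above the STAT5B-only median, with an interval of 49.9 to 71.2 that holds 50%. STAT5B was then also called untreated at 86% of pairs without strong NR3C1 and 68.4% of STAT5B-only regions. With lists of equal length the STAT5B co-bound share was 13.6%. Of co-bound NR3C1 regions, 62.1% were then above the NR3C1-only median, with an interval of 52.0 to 71.5 that lies above 50%. That NR3C1 share was 50% (41.7 to 58.3) when regions within 500 bp made a pair. With a gene start of 5 kb the shares were 34.0% for co-bound, 76.3% for STAT5B-only and 16.5% for NR3C1-only regions, and with either end of every gene, added after the data were seen, 66.7% for STAT5B-only regions. The untreated share of STAT5B-only regions was 66.9% with untreated regions within 500 bp, and with untreated −log10 q of at least 5 it was 46.2%, against 65.6% at pairs without strong NR3C1. At pairs with strong NR3C1 it was 26.9% to 40.4% in every alternative run. Links to the gene span alone gave 63 genes at co-bound regions and 4 glucocorticoid-response members, and links of 50 kb gave 242 genes and 11 members. Apart from the numbers of genes and regions that each definition admits, the cause was not tested.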

Other observations

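Promoters with a summit of either factor were also searched for other letters, after the data had been seen. CCGGAAGT, the letters bound by many ETS-family factors, was on either strand in 69 of the 375 windows with a STAT5B-only summit (18.4%, exact 95% interval 14.6 to 22.7) and in 5.35% of all 22132 windows. It was in 2 of the 14 windows with a co-bound STAT5B summit (14.3%, 1.78 to 42.8), in which the interval holds both other shares. It was also in 4 of the 16 windows with an NR3C1-only summit (25%, 7.27 to 52.4) and in 6 of the 29 with any NR3C1 summit (20.7%, 7.99 to 39.7). DMAP1, whose promoter is printed above, is one of these windows, with a match between its summits. TGACGTCA, the cyclic AMP response element, was in 2.40% of STAT5B-only windows and 2.26% of all. GC content had a median of 64.7% in STAT5B-only windows and 62.3% in all windows, and its part in the CCGGAAGT share was not tested. The 389 windows with any STAT5B summit held 310 summits, so some windows shared a summit. The exact intervals count such windows as separate and are too narrow to that extent.

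Some pairs lay in clusters. The 142 pairs had 10 genes that were nearest to more than 1 of them, and 23 pairs shared a nearest gene with another. Some of these pairs share a region: 1 STAT5B region, near RPS6KA1, overlapped 2 NR3C1 regions. In turn, 2 NR3C1 regions, in SH3TC1 and near LOC102724560, each overlapped 2 STAT5B regions. The gene with the ID LOC102724560 on chromosome 21 was nearest to 4 pairs, and ZFPM1, a cofactor of GATA factors, to 3. The STAT5B regions of those 4 pairs lay within chr21:6369658-6372320, with solved backgrounds of 3.49 to 5.49 times that of the genome. How uniquely reads map there was not examined. A pair 570960 bp from MYC had summits 4 bp apart, with folds of 6.49 for STAT5B and 16.7 for NR3C1.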
